A study of Rattus norvegicus with 2 samples.

Results

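The genes described are the collagens and other extracellular matrix genes of RBL-2H3 cells. They were chosen by gene name: collagen chains, laminin chains, fibronectin, Sparc, fibulins, fibrillins and thrombospondins, the prolyl and lysyl hydroxylases, lysyl oxidases, matrix metalloproteinases, ADAMTS genes and Timp inhibitors. The table of all genes held 44 such genes among 14913 distinct names, and 31 of the 44 (70.5%) had 20 or more reads in all, against 81.2% of all names. RBL-2H3 is an established rat basophilic leukemia line that carries the high-affinity IgE receptor and serves as a model of mast cells and basophils. Both libraries came from cells labelled WT. One was untreated and the other was incubated with IgE, with no dose, duration or antigen given in the labels. Each condition is 1 library of poly(A)-selected RNA, sequenced to 20917968 counted reads for untreated cells and 26268330 for IgE. No value below has a replicate, and no test across samples was possible. The study asked about events downstream of IgE acting on its receptor.

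The extracellular matrix is the protein network around cells. Collagen chains are hydroxylated on proline and lysine in the endoplasmic reticulum, fold into a triple helix, and are secreted, trimmed and crosslinked by lysyl oxidases. Laminins are trimers of an alpha, a beta and a gamma chain and form the basement membrane, while metalloproteinases cut the matrix and Timp proteins inhibit them. Mast cells in tissue lie within this matrix and attach to it through integrins. Most matrix is made by fibroblasts and epithelia.

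Values are given in the order untreated, then IgE, as reads or as CPM (read counts put on a common depth with TMM scaling). Folds are differences of log2 CPM with a prior of 0.5 counts, IgE minus untreated, and are given only where both libraries together held 20 or more reads. The interval beside a fold is an exact 95% interval (Clopper-Pearson) for the ratio of reads, called the counting interval. It covers counting error only, not the spread between cultures. A gene is called higher or lower by size when it differs by at least 2-fold. CPM values are not divided by transcript length, so they compare 1 gene between the libraries and not one gene with another. In a whole culture, fewer cells that make a transcript and less of it per cell cannot be told apart.

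Of 16 mast cell and basophil marker names, 12 were counted, all with 20 or more reads, with a summed level of 8826 CPM in the untreated and 9091 CPM in the IgE library. Of 14 fibroblast and pericyte markers, 3 were counted. Thy1 stood at 145 and 147 CPM, Tagln at 1.05 and 1.53 CPM, and Acta2 had 4 and 7 reads. None of the counted fibroblast markers was at 0, and the other 11 names, Pdgfra and Dcn among them, were not analysed here. Of 9 epithelial markers, Krt8 (5 and 1 reads) and Cldn7 (5 and 11 reads) were counted. Endothelial markers, of which 4 of 8 were counted and none at 0, summed to 253 and 243 CPM, with Pecam1 at 195 and 196 CPM and Tek at 55.1 and 44.2 CPM (log2 -0.32, -0.44 to -0.20). Cartilage and bone markers, of which 3 of 8 were counted and none at 0, summed to 17.4 and 15.1 CPM, with Comp at 14.6 and 12.4 CPM (-0.24, -0.47 to -0.01). Both sums were lower with IgE, as were the summed laminins and fibrillar collagens below. The fibroblast and pericyte sum was 146 CPM untreated and 149 CPM with IgE. Nearly all of it was Thy1, whose counting interval spanned 0 (log2 0.03, -0.04 to 0.10). Comp, which made up most of the cartilage and bone sum, is itself a matrix protein. The part of these marker sums in the laminin and collagen results was not tested.

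Matrix genes made up 0.114% of all reads in untreated cells and 0.103% with IgE. At least 1 read was counted for 43 of the 44, and 97.0% of all names had one. A total of 1000 or more reads was reached by 11, or 25.0%, against 46.6% of all names, and the median was 106.5 reads against 812 for all. Reads were concentrated in few genes. The collagen hydroxylases held 38% of the matrix gene reads in the untreated library, the fibrillar collagens 30.4% and the laminins 17.4%. The shares with IgE were 38.2%, 30.2% and 17.4%, so the makeup of the set was close between the libraries.

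**Figure D1:**
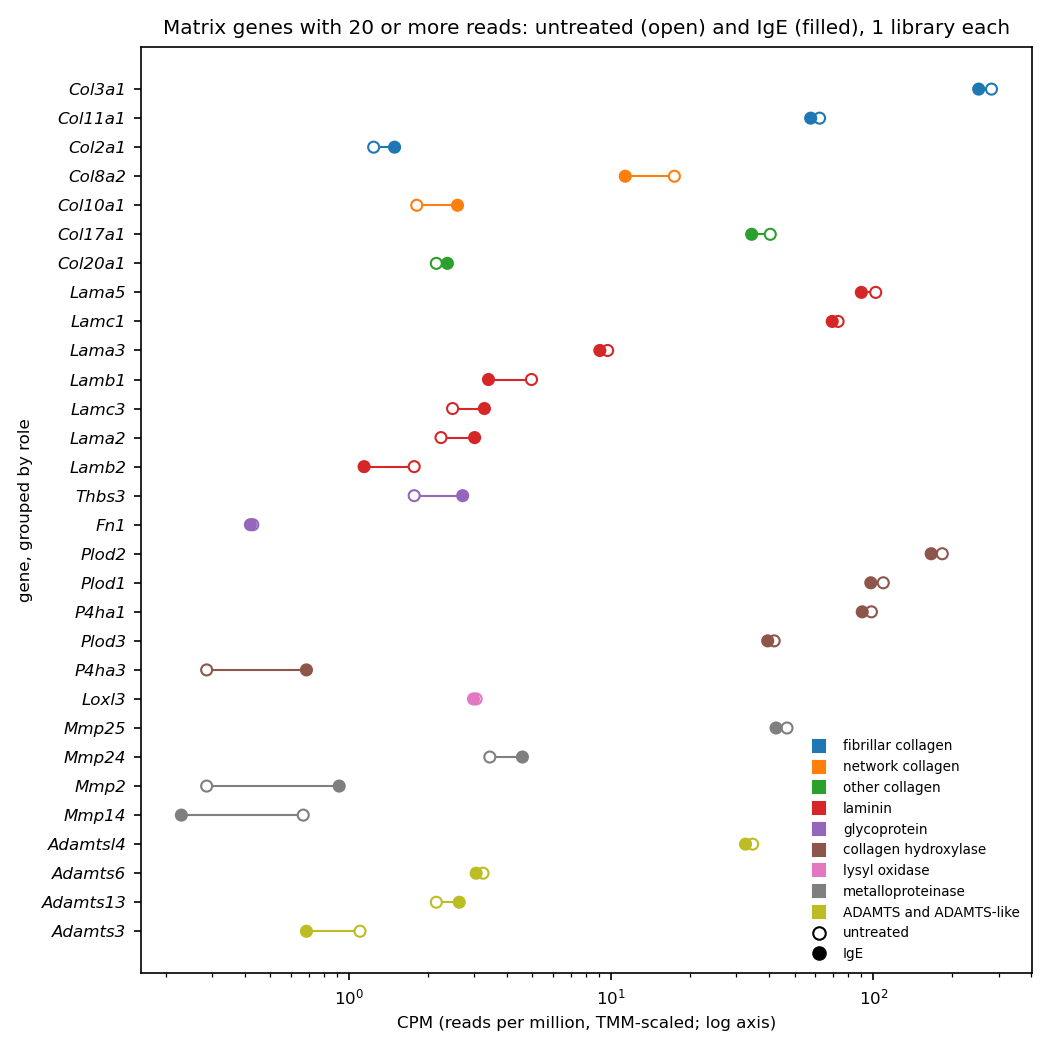
Level in CPM (log axis) of 30 of the 31 matrix genes with 20 or more reads, grouped and coloured by role, with the untreated library as an open and the IgE library as a filled circle. Col3a1 moves from 282 to 252 CPM, and the widest gaps belong to genes near or under 1 CPM, namely Mmp2, Mmp14 and P4ha3.

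Upstream windows of 4 genes are printed to show the sequence in front of genes the results turn on: Plod2, Plod1 and P4ha1, the hydroxylase genes whose counting intervals lay below 0, and Col8a2, the collagen gene furthest below 0. Each is the 250 bases before the RefSeq gene start, read 5′ to 3′ on the gene's strand (build GRCr8, which is not the build of the counts). Capitals mark GGGCGG, the core of a GC box, on either strand (CCGCCC on the other), and overlapping matches run together. The windows are chr8:101964068-101964317 (+) for Plod2, chr5:163650738-163650987 (-) for Plod1, chr20:27844796-27845045 (+) for P4ha1 and chr5:143870519-143870768 (+) for Col8a2.
Plod2: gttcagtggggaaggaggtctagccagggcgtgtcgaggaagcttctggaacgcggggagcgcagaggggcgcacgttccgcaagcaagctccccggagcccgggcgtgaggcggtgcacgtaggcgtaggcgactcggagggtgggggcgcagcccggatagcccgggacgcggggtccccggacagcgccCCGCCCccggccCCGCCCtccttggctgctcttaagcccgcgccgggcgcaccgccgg
Plod1: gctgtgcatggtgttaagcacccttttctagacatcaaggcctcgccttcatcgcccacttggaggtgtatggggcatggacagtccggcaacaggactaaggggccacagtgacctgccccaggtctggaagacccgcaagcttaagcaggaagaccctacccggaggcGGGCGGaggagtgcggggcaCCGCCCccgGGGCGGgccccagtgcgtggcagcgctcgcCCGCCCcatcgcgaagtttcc
P4ha1: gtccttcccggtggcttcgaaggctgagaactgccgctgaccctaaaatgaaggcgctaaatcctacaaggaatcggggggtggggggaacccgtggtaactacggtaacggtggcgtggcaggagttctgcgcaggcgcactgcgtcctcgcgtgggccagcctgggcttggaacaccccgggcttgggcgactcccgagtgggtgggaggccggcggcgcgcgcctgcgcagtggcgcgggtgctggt
Col8a2: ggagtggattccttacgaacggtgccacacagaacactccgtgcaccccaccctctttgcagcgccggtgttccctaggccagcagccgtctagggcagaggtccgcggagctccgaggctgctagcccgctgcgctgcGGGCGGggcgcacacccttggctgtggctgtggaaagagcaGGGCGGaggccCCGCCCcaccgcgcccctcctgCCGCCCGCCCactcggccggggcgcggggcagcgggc
The GC box core was found 2 times before Plod2, 4 times before Plod1, 0 times before P4ha1 and 5 times before Col8a2. The GC content of the windows was 74.8%, 65.6%, 67.6% and 73.2%. Of the 44 genes, 35 had an entry in the promoter table, and 23 of these (65.7%) held the motif, against 59.0% of 8560 genes with 20 or more reads and an entry and 30.5% of all 33469 windows. The 35 include genes under 20 reads, so they were not chosen by depth as the 8560 were. TATAAA, searched on both strands, was in 6 of the 35 (17.1%) against 6.36% of the 8560 genes and 12.9% of all windows. CCAAT was in 10 (28.6%) against 36.6% of the 8560 genes and 34.0% of all windows. ACGTG, a form of the core that hypoxia-inducible factors bind, was in 4 (11.4%) against 23.0% and 16.6%. GCGTG, the other form of that core, was not counted, so these shares do not cover all such sites. Of the printed windows, only that of Plod2 held ACGTG, with 2 matches. None of the 4 printed windows held TATAAA or CCAAT. Among the genes without an entry were Col3a1, Fn1, Mmp2 and Mmp14.

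Fibrillar collagens build the banded fibres of connective tissue. Of the 11 fibrillar collagen names listed, 4 were in the table, Col3a1, Col11a1, Col2a1 and Col11a2. Col3a1, which encodes the chain of type III collagen, had 5904 and 6619 reads. That was 282 CPM untreated and 252 CPM with IgE, a fold of 0.896 (log2 -0.16, counting interval -0.21 to -0.11). Col3a1 had the most reads of the set, and its interval lay wholly below 0. Col11a1, a chain of type XI collagen that sits in the core of cartilage fibrils, had 1306 and 1509 reads (62.3 and 57.6 CPM, log2 -0.11, -0.22 to -0.01). Col2a1, the main cartilage collagen, had 26 and 39 reads (1.24 and 1.49 CPM, log2 0.26, -0.49 to 1.04), too few to set it apart from no difference. Col11a2 had 2 and 10 reads and is given without a fold. Summed over the 4 genes, 345 CPM untreated stood against 312 CPM with IgE, a log2 ratio of -0.15 (-0.19 to -0.10). Without Col3a1 the ratio was -0.10.

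Of the basement membrane and short-chain network collagens, 2 of 9 listed names were counted. Col8a2, a short-chain collagen of the corneal basement membrane, had 365 and 296 reads, or 17.4 and 11.3 CPM. Its fold was 0.649 (log2 -0.62, -0.85 to -0.40). Col8a2 was lower in the IgE library than any other collagen gene with a fold, and had fewer reads there although that library was the deeper one. In the authors' deposited table its unadjusted p was 0.00725 and its adjusted p 0.431. Col10a1, the collagen of hypertrophic cartilage, had 38 and 68 reads (1.81 and 2.59 CPM, log2 0.51, -0.08 to 1.13), so the 2 genes lay on opposite sides of 0. Type IV collagen, the main basement membrane collagen, was not analysed here.

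Of 25 other collagen names, 5 were counted and 2 had 20 or more reads. Col17a1, a transmembrane collagen of hemidesmosomes, had 847 and 899 reads (40.4 and 34.3 CPM, log2 -0.24, -0.37 to -0.10). Col20a1, a fibril-associated collagen, had 45 and 62 reads (2.15 and 2.37 CPM, log2 0.14, -0.44 to 0.73). Below 20 reads, Col9a2 had 3 and 15, Col23a1 4 and 9, and Col14a1 6 and 4. The interval of Col17a1 lay below 0 and that of Col20a1 spanned it.

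All 8 counted laminin genes had 20 or more reads, and none differed by 2-fold, against 1.33% of all genes higher and 1.3% lower. Lama5, an alpha chain of many adult basement membranes, had 2147 and 2356 reads (102 and 89.9 CPM, log2 -0.19, -0.27 to -0.10). Lamc1, the gamma chain that most laminins share, had 1536 and 1824 reads (73.3 and 69.6 CPM, log2 -0.07, -0.17 to 0.02). Lamb1, a beta chain, had 104 and 89 reads (4.96 and 3.4 CPM, log2 -0.54, -0.97 to -0.13). Of the 8 laminin chains, 2 (Lama5 and Lamb1) had intervals below 0, near the 19.1% of all genes, and 0 had one above, against 19.4%. Lama3, the alpha chain of epidermal laminin, had 203 and 237 reads (9.68 and 9.04 CPM, log2 -0.10, -0.38 to 0.18). Lamb2 had 37 and 30 reads (-0.62, -1.37 to 0.11). Lama2, the alpha chain of muscle laminin, had 47 and 79 reads (2.24 and 3.01 CPM, 0.42, -0.11 to 0.98), and Lamc3 52 and 86 (0.40, -0.11 to 0.93). Lama2 and Lamc3 were the 2 chains above 0, each with an interval that spanned it. The summed laminin level was 198 CPM untreated and 180 CPM with IgE (log2 ratio -0.13, -0.20 to -0.07).

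Of the other matrix glycoproteins, 4 were counted and 2 had 20 or more reads. Thbs3, a thrombospondin, had 37 and 71 reads (1.77 and 2.71 CPM, log2 0.61, 0.02 to 1.23). The lower end of that interval is close to 0. Fn1, which encodes fibronectin, had 9 and 11 reads (0.429 and 0.42 CPM, log2 -0.03, -1.44 to 1.42). Sparc, a collagen-binding protein, had 8 and 5 reads, and Fbln5, an elastic fibre protein, 3 and 3. Fn1, Sparc and Fbln5 were thus near the limit of counting in both libraries, where 3 reads correspond to 0.143 CPM untreated and 0.114 CPM with IgE. Fibrillins were not analysed here.

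The collagen hydroxylases held more reads than any other role. Plod1, Plod2 and Plod3 encode lysyl hydroxylases, whose products set where collagen can be crosslinked and glycosylated, and P4ha1 and P4ha3 encode catalytic subunits of prolyl hydroxylase, which stabilises the triple helix. Plod2 had 3827 and 4344 reads (183 and 166 CPM, log2 -0.14, -0.20 to -0.08). Plod1 had 2278 and 2561 reads (109 and 97.7 CPM, -0.15, -0.24 to -0.07). P4ha1 had 2058 and 2374 reads (98.2 and 90.6 CPM, -0.12, -0.20 to -0.03). The intervals of these 3 genes overlapped each other and lay below 0. That was 3 of the 5 hydroxylases, against 19.1% of all genes with 20 or more reads and 25.2% of those with 1000 or more. Plod3 had 877 and 1036 reads (41.8 and 39.5 CPM, -0.08, -0.21 to 0.05). P4ha3 had 6 and 18 reads (0.286 and 0.687 CPM, log2 1.20, -0.13 to 2.88). It was at least 2-fold higher by size, but its interval spanned 0 and overlapped those of the other hydroxylases. Summed, the hydroxylases went from 432 to 394 CPM (log2 ratio -0.13, -0.17 to -0.09), close to the ratio of the fibrillar collagens and of the laminins.

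Of the lysyl oxidases, which crosslink collagen and elastin outside the cell, Loxl3 was counted, with 64 and 78 reads (3.05 and 2.98 CPM, log2 -0.04, -0.53 to 0.46). Its interval spanned 0.

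Of 9 matrix metalloproteinase genes, 4 had 20 or more reads. Mmp25, a membrane-anchored protease of leukocytes, had 980 and 1113 reads (46.8 and 42.5 CPM, log2 -0.14, -0.26 to -0.01). Mmp24, a membrane-type protease, had 72 and 120 reads (3.44 and 4.58 CPM, 0.41, -0.02 to 0.86). Mmp2, a gelatinase, had 6 and 24 reads (0.286 and 0.916 CPM), a fold of 3.05 (log2 1.61, 0.35 to 3.26). It was the highest fold of the set. Mmp14, the membrane-type protease known to activate the Mmp2 proenzyme, had 14 and 6 reads (0.668 and 0.229 CPM), a fold of 0.363 (log2 -1.46, -3.21 to -0.08). It was the lowest fold of the set. Both genes rest on few reads. Macrophage markers, of which 3 of 10 were counted and none at 0, summed to 5.49 and 3.2 CPM, in the same direction as Mmp14. Their part in its value was not tested. Mmp19 (8 and 5 reads), Mmp21 (4 and 2), Mmp23 (2 and 4), Mmp7 (3 and 0) and Mmp13 (0 and 0) were at or near the floor.

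Of 5 ADAMTS and ADAMTS-like genes, 4 had 20 or more reads, and all 4 intervals spanned 0. Most genes with 20 or more reads had such an interval, with 19.4% above 0 and 19.1% below. Adamtsl4, a fibrillin-binding protein without a protease domain, had 726 and 852 reads (34.6 and 32.5 CPM, log2 -0.09, -0.24 to 0.05). Adamts6 had 68 and 80 reads (3.24 and 3.05 CPM, -0.09, -0.57 to 0.40). Adamts13, which cleaves von Willebrand factor, had 45 and 69 reads (2.15 and 2.63 CPM, 0.29, -0.27 to 0.87), and Adamts3, a procollagen N-proteinase, 23 and 18 (-0.66, -1.65 to 0.28). Adamts10, a protease linked to fibrillin microfibrils, had 14 reads untreated (0.668 CPM) and 0 with IgE, which allows up to 3 reads or 0.114 CPM. It was under the 20 reads needed for a fold. The inhibitor gene Timp1 had 3 and 7 reads, and other Timp genes were not analysed here.

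**Figure D2:**
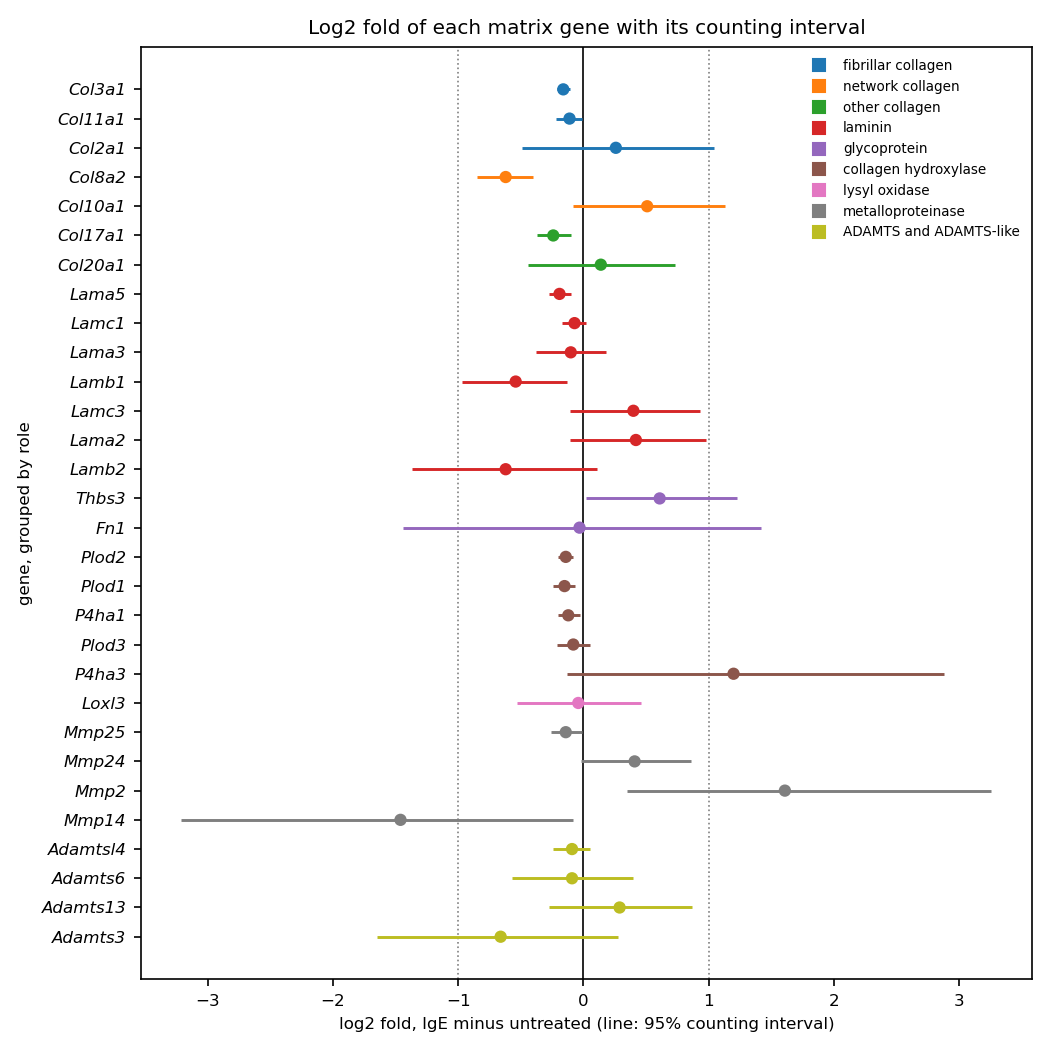
Log2 fold (IgE minus untreated) of 30 of the 31 matrix genes with 20 or more reads, with the 95% counting interval as a line and dotted lines at 2-fold. The short intervals of the genes with many reads, such as Col3a1, Lama5 and Plod2, sit just left of 0, while Mmp2 and Mmp14 lie beyond 2-fold on opposite sides with wide intervals.

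By the rule of size, 2 of the 31 genes were at least 2-fold higher (Mmp2 and P4ha3), against 1.33% of 12102 genes with 20 or more reads. One, Mmp14, was at least 2-fold lower, against 1.3% of the same genes. The other 28 lay between. All 3 had at most 30 reads, and among the 23 matrix genes with 100 or more reads 0 were 2-fold apart in either direction, against 0.203% of all genes at that depth higher and 0.145% lower. The counting interval lay above 0 for 2 of the 31 (Mmp2 and Thbs3), against 19.4% of all genes, and below 0 for 11, against 19.1%. The 11 were Col3a1, Col11a1, Col8a2, Col17a1, Lama5, Lamb1, Plod1, Plod2, P4ha1, Mmp25 and Mmp14. Of the 31, 21 were below 0 and 10 above, against 49.7% of all genes below. The median log2 fold of the 31 was -0.09, and that of all 12102 genes was 0.00.

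**Figure D3:**
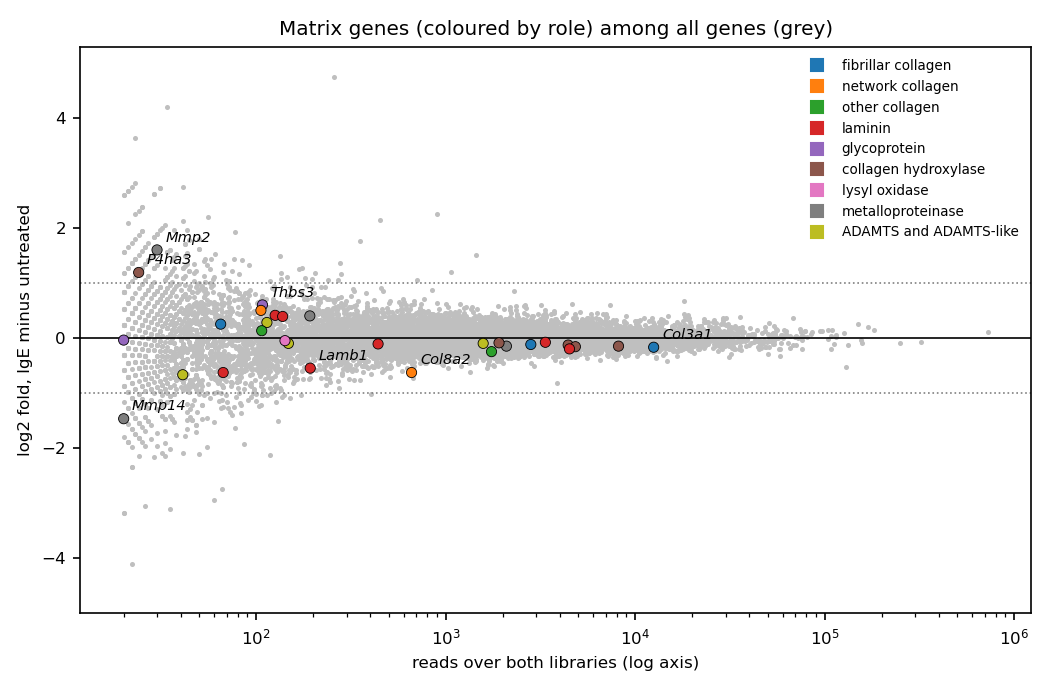
Log2 fold (IgE minus untreated) against reads over both libraries (log axis) for all 12102 genes with 20 or more reads in grey and 30 of the 31 matrix genes coloured by role, with dotted lines at 2-fold. The matrix genes lie inside the grey cloud, and the 11 with 1000 or more reads are all just below the line at 0.

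The matrix genes with many reads leaned one way. All 11 with 1000 or more reads had a log2 fold below 0, from -0.24 (Col17a1) to -0.07 (Lamc1), with a median of -0.14. Of all 6955 genes at that depth 51.1% were below 0. For 8 of the 11 the counting interval was below 0, against 25.2% of the 6955, and for 0 it was above, against 24.4%. The minimum of 1000 reads was chosen after the values were seen. Over all genes at that depth the log2 folds had a median of -0.00 and an SD of 0.15. No replicate shows how far 2 cultures under the same treatment would differ.

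Gene span moved with the fold among genes with 1000 or more reads, so it is given beside this result. Of these genes, 94.9% had a genomic span in RefSeq (GRCr8). They were put into 4 span classes of equal size. In the class of shortest span the median log2 fold was 0.06 and 34.8% of genes were below 0. In the class of longest span the median was -0.05 and 68.4% were below 0. The 11 matrix genes were spread over the classes, with 2, 2, 3 and 4 of them from shortest to longest. Plod3 (10.6 kb) and Adamtsl4 (11.5 kb), in the shortest class, had log2 folds of -0.08 and -0.09, and Col11a1 (193 kb), in the longest, -0.11. All 11 lay below the median of their own class. They were already known to be below 0. In the shortest and second classes, with medians of 0.06 and 0.00, this outcome was therefore fixed in advance. Transcript length was not used here, and the part of span in the result was not tested.

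**Figure D4:**
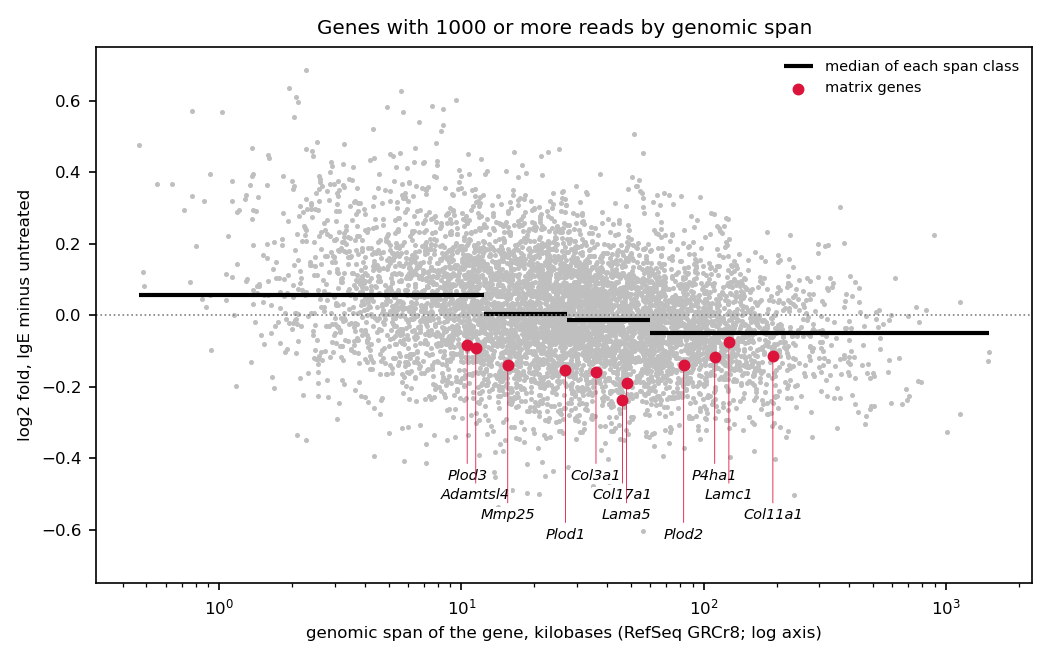
Log2 fold (IgE minus untreated) against genomic span in kilobases (log axis) for genes with 1000 or more reads, with black lines at the median of each span class and the 11 matrix genes in red. One gene lies outside the plotted range, and the red points are all below the black line of their class.

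Genes that act on the same proteins without belonging to the set were taken from lists chosen by role. Of 24 names for collagen folding, export and procollagen trimming, 14 had 20 or more reads. None differed by 2-fold, against 1.33% of all genes higher and 1.3% lower. The list median was 0.01, with 6 of 14 intervals above 0, against 19.4% of all genes, and 2 below, against 19.1%. P4hb, the partner subunit of P4ha1 in prolyl hydroxylase, had 33126 and 42205 reads (log2 0.03, 0.01 to 0.05), while P4ha1 itself was at -0.12. Ppib, a prolyl isomerase of the collagen folding complex, was at 0.33 (0.26 to 0.39), and Bmp1, which trims procollagen, at 0.48 (0.26 to 0.69). Pcolce, an enhancer of that trimming, was at -0.48 (-0.91 to -0.07), and P3h3, a further prolyl hydroxylase, at -0.35 (-0.58 to -0.12). The enzymes of this list thus lay on both sides of 0.

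Of 45 names of proteoglycans and other matrix proteins, 12 had 20 or more reads, with a median log2 fold of -0.12. Emilin1, an elastic fibre glycoprotein with 44 and 23 reads, was at least 2-fold lower (log2 -1.24, -2.05 to -0.50), and none was 2-fold higher. Of all genes, 1.3% were lower and 1.33% higher by that rule. Intervals lay below 0 for 5 of the 12, against 19.1% of all genes, and above 0 for 1, against 19.4%. That 1 was Srgn, the core protein of the mast cell granule proteoglycan, with 31661 and 43020 reads (0.12, 0.10 to 0.14). Ltbp4, a latent TGF-beta binding protein, was at -0.32 (-0.47 to -0.17), and Agrn, a basement membrane proteoglycan, at -0.38 (-0.65 to -0.11).

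Of 31 names of matrix receptors, 16 had 20 or more reads, with a median of -0.13. Intervals lay below 0 for 6 of the 16, against 19.1% of all genes, and above 0 for 3, near the 19.4% of all genes. Itgb4, the laminin-binding beta chain of hemidesmosomes, had 62 and 38 reads (log2 -1.02, -1.65 to -0.42). It was the 1 receptor of the 16 at least 2-fold lower, against 1.3% of all genes. Itga2, a collagen-binding integrin chain, was at -0.58 (-0.90 to -0.26), Itga5, which pairs to bind fibronectin, at -0.34 (-0.50 to -0.18), and Itgb3 at -0.33 (-0.45 to -0.20). Itgb1, the shared beta chain, was at 0.07 (0.03 to 0.10). Of 18 names of protease activators, receptors and lysosomal collagen-degrading enzymes, 14 had 20 or more reads, with a median of -0.01.

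The authors' deposited table of genes they selected held 3 of the 44 matrix genes. Mmp2 and Col9a2 were listed as up, against 1.41% of all names, and Adamts10 as down, against 1.61%. In the authors' deposited table Adamts10 had an adjusted p of 0.0378, Mmp2 of 0.589 and Col9a2 of 0.909. The values in the authors' deposited table were recomputed by edgeR's exact test with a fixed dispersion of 0.01, so these p-values compare the 2 libraries under an assumed spread and not the conditions over replicates.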

How the data were processed

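RNA-seq of poly(A) RNA was done on 1 untreated and 1 IgE library of RBL-2H3 cells, grouped by the treatment label. The authors deposited raw read counts per gene name, with a log2 fold change, an unadjusted p-value and an FDR-adjusted p-value for the library pair, per the file headers. HISAT2 2.1.0, fastp 0.23.0, DESeq2 1.18.1 and rn6 are named, without roles, in the submitters' processing notes. The counter and its strand setting were not given in the sources used here, so reads of overlapping or near-identical genes cannot be separated.

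Repeated identical rows (2077 of 16990) were dropped. Scaling (TMM) and log2 CPM used edgeR 4.0.16 in R 4.3.3 on the whole table, and counting intervals used scipy 1.17.1. With 1 library per group no test was made. Every matrix gene with 20 or more reads was open to naming, and the 3 of each role with the most reads, those 2-fold apart and the 3 highest and 3 lowest folds with 100 or more reads were given in full. Genes of the other lists were named after their values were seen. The members and lists were chosen with earlier results of these data known. Levels per coding length had been planned but no protein lengths were used here. Some named results are not reported here. The calculation was tested on simulated data. All 44 names matched a RefSeq symbol (GRCr8). Alternatives were library totals, DESeq2 1.42.0 size factors, other minimums, a prior of 5 counts, a 1.5-fold rule and a 99% interval.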

Additional observations from a re-analysis of the deposited data

How the results depend on the processing

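No paired analysis was possible because there was only 1 library in each group, and no library could be left out. Depth limits the genes under 100 reads. The number of matrix genes at least 2-fold higher was 2, and it was 4 with no minimum, 0 with a minimum of 100 reads and 1 with a prior of 5 counts. The number at least 2-fold lower was 1, and it was 4 with no minimum, 0 with a minimum of 100 reads, 0 with a prior of 5 counts and 4 with a 1.5-fold rule. Intervals above 0 went from 2 to 1 with a minimum of 100 reads and to 1 at 99%. Intervals below 0 went from 11 to 7 at 99%. The summed ratio of the fibrillar collagens was -0.10 without Col3a1, in place of -0.15. By their construction the minimum and the prior affect mainly genes with few reads. The median log2 fold of the set ranged from -0.10 to -0.09 under 7 alternatives. The 147 alternative folds of single genes all lay inside the gene's counting interval, and none differed in sign. These alternatives leave a gene's own reads unchanged, and a larger prior draws folds toward 0, so there was little room for another outcome. Library totals or DESeq2 size factors moved the median of all genes by at most 0.006. Chosen after seeing the data, a minimum of 500 reads gave 12 of 12 genes below 0, and 2000 reads gave 8 of 8. These sets are nested with the 11 genes of 1000 or more reads. The 8 are among those 11, so their count was fixed in advance, and the 12 are those 11 with Col8a2.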
